A study of Mus musculus with 8 samples.

Results

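The death receptor and apoptosis pathway was examined through 9 of its genes in the livers of female mice fed a western diet (WD). They were chosen by symbol: Fas (the death receptor, not fatty acid synthase), Tnfrsf1a, Casp8, Cflar, Ripk1, Bid, Bax, Bcl2l1 and Mcl1. All 9 were found among the 14317 mouse genes with values, and all 9 were among the 14312 whose mean was high enough to be tested. The list was drawn up with earlier results of this same contrast known, so that the direction and number of its changes are a description of these livers, and each adjusted p below only places that gene within the fit over all genes.

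RNA from 8 livers was sequenced, 4 from vehicle-treated controls (Con-Veh) and 4 from dihydrotestosterone-treated controls (Con-DHT), with 1 library per mouse. All the mice were females, and the labels give the genotype of both groups as WT. They received a silastic pellet at 7 weeks of age, empty (Veh) or with 10 mm of dihydrotestosterone (DHT), an androgen that is not converted to estrogen. Both groups ate the WD, rich in fat, fructose and cholesterol, for 8.5 weeks and were fasted overnight before the tissues were taken. DHT reached the whole animal and the libraries were made from whole liver, so that fewer cells of a type and less RNA per cell cannot be told apart in any value below. The libraries held 14240001 to 17815944 reads on mouse genes in Con-Veh and 13123962 to 15205299 in Con-DHT. Values are normalized read counts, that is, reads divided by the size factor of the library, and spreads are SDs over 4 mice.

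Death receptors are membrane proteins of the tumor necrosis factor receptor family that carry a death domain on the cytoplasmic side. When their ligand binds, the adaptor FADD and the initiator caspase-8 gather on the receptor, and the decoy caspase c-FLIP, encoded by Cflar, limits how much caspase-8 is activated. Hepatocytes depend on a mitochondrial step for this death: caspase-8 cuts Bid, truncated Bid engages Bax and Bak in the outer mitochondrial membrane, and Bcl-xL and Mcl-1 hold them in check. The liver is known to be highly sensitive to Fas ligation, and hepatocytes, Kupffer cells and endothelial cells all carry the receptor.

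Fas was the member that differed most between the groups. It fell by 34.6% in Con-DHT livers, and no Con-DHT liver reached the lowest Con-Veh liver. Of the other 8 members none passed the threshold of an adjusted p of 0.05, although Tnfrsf1a and Bax had intervals that stayed below no change. Casp8 was the member with a log2 fold change above 0, and the remaining members lay close to 0 or slightly below.

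The normalized read counts of Fas (ENSMUSG00000024778, chromosome 19) were 281, 338, 288 and 289 in Con-Veh replicates 1 to 4. In Con-DHT replicates 1 to 4 they were 217, 193, 172 and 200. The 2 ranges were thus separate, with a gap between the highest Con-DHT and the lowest Con-Veh liver. The means were 299 ± 26 and 195 ± 18.4 (SD, n = 4 each), a log2 fold change of -0.61 (SE 0.10, 95% interval -0.84 to -0.39), or 0.654 times the Con-Veh level (0.559 to 0.765). In limma's fit over all genes its adjusted p was 0.0062. These values rest on 169 to 350 reads per library. Fas passed the threshold in 8 of 8 fits that left out 1 library, with log2 fold changes from -0.66 to -0.55.

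The call of Fas was lost where the libraries were scaled to an equal total of the synthetic spike-in RNA (log2 fold change -0.41, adjusted p 0.83 by limma). That scaling put the median of all genes at 0.19 on the log2 scale (-0.01 without it). Relative to the scaled median Fas stood at -0.60. Scaling by 1 factor per library shifts all genes nearly alike, so this difference repeats the unscaled estimate and is no separate check. What lies behind the shift was not tested. The spike-ins took between 1.68% and 3.61% of the reads, and both of these extremes were Con-Veh libraries.

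The promoters of Fas and Tnfrsf1a, the death receptor genes among the members, are shown. Both hold TTCNNNGAA, the palindromic core known to be bound by STAT5, which relays growth hormone signals in the liver. Each is the 250 bases before the RefSeq start site on the plus strand of GRCm38.p6, an older build than the GRCm39 named in the submitters' processing notes. The Fas window is chr19:34290409-34290658 and the Tnfrsf1a window is chr6:125349473-125349722, both written 5′ to 3′ with matches in capitals.
Fas: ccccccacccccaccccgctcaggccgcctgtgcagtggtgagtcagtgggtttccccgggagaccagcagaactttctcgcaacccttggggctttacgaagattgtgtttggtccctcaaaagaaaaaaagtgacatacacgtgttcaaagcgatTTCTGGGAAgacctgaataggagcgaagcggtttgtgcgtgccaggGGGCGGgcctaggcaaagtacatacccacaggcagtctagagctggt
Tnfrsf1a: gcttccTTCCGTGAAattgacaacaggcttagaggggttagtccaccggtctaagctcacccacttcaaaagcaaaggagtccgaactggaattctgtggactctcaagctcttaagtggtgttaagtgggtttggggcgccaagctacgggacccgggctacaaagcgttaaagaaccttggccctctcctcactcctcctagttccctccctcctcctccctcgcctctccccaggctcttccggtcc

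In the Fas promoter TTCTGGGAA lies at -93 to -85 from the start site and a GC box, GGGCGG, at -47 to -42, and the 2 do not overlap. In the Tnfrsf1a promoter TTCCGTGAA lies at -244 to -236. On either strand, TTCNNNGAA was present in 7.02% of 32851 mouse promoters of this length, GGGCGG in 32.7% and the TATA box letters TATAAA in 12.4%. The 9 members have 12 promoters in the table. TTCNNNGAA was found for 3 members (Fas, Ripk1 and Tnfrsf1a), GGGCGG for 5 (Bax, Bid, Fas, Mcl1 and Ripk1) and TATAAA for Cflar alone. These are counts of genes, some with several promoters, whereas the shares above are per promoter. The Ripk1 promoters are not shown. A match is only a description of the letters in this window.

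**Figure D1:**
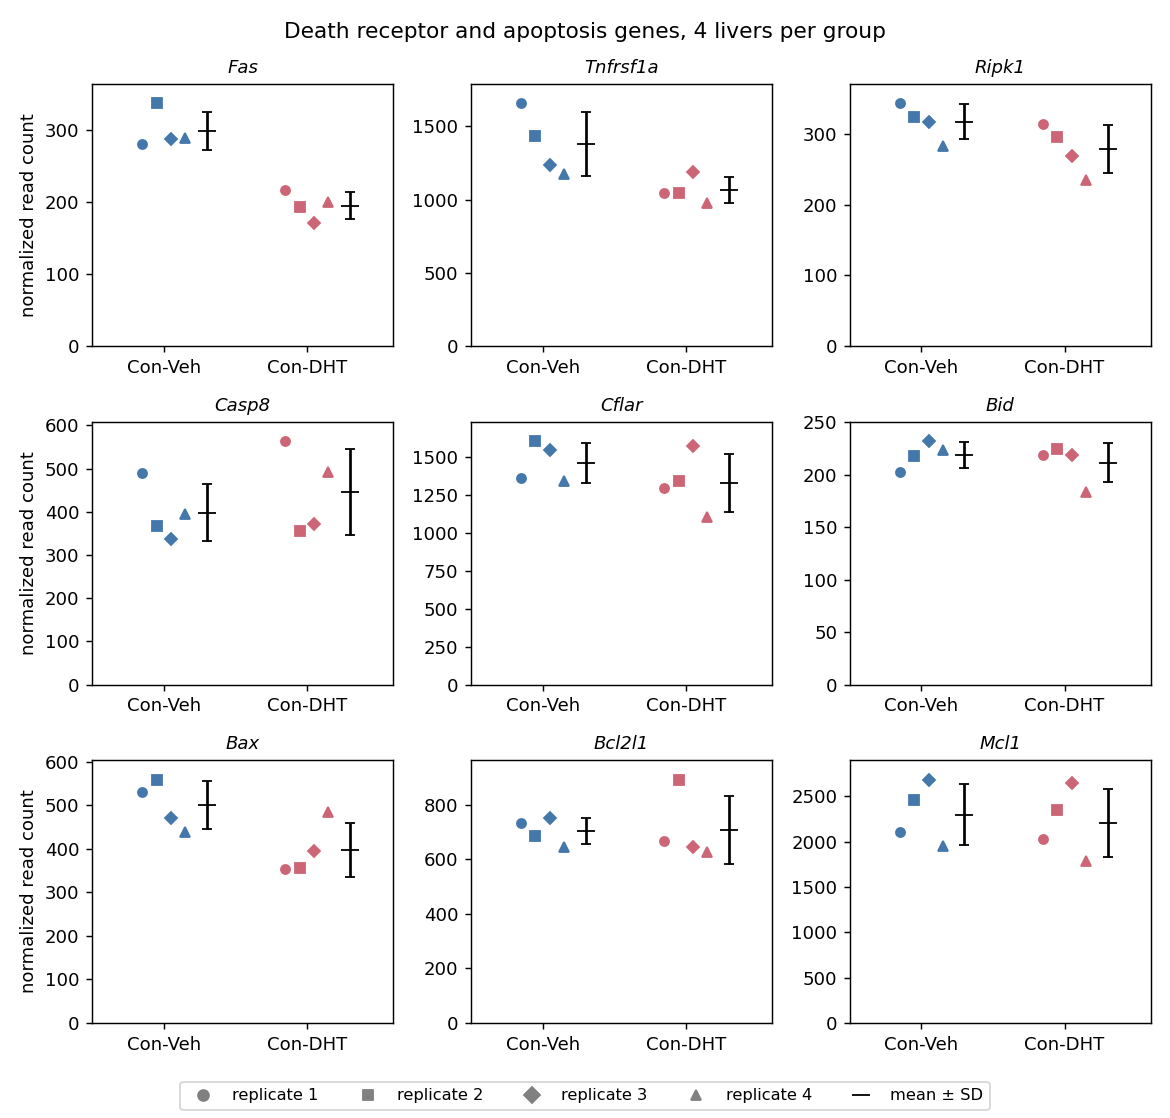
Normalized read counts of the 9 members (y axis, from 0) in the Con-Veh and Con-DHT livers, with 1 marker shape per replicate number and the mean ± SD of 4 mice in black. The Fas panel is the one where the groups do not overlap, with Con-Veh between 281 and 338 and Con-DHT between 172 and 217.

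Tnfrsf1a (ENSMUSG00000030341, chromosome 6) encodes the first receptor for tumor necrosis factor, which can lead either to NF-κB activation or to caspase-8. Its normalized read counts were 1658, 1436, 1235 and 1178 in Con-Veh and 1048, 1044, 1187 and 975 in Con-DHT. Of the Con-DHT livers 3 lay below all Con-Veh livers, and Con-DHT replicate 3 lay just above the lowest of them. The means were 1377 ± 218 and 1064 ± 88.8, with a log2 fold change of -0.36 (SE 0.11, 95% interval -0.61 to -0.12). The adjusted p was 0.082 with limma, and 0.038 with DESeq2 on the recovered reads, a test that called 11.0% of all genes.

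Ripk1 encodes the kinase that joins the TNFR1 complex and directs it to survival, apoptosis or necroptosis. Its values were 343, 324, 317 and 283 in Con-Veh and 313, 295, 268 and 235 in Con-DHT. The groups overlapped, and the log2 fold change was -0.19 (SE 0.11), with a 95% interval from -0.43 to 0.05 and an adjusted p of 0.32. Of its 8344 exonic bases in GENCODE M21, 241 overlap Serpinb6a on the opposite strand and 511 overlap a processed pseudogene, Gm17084, on the same strand. How the counting treated strand and shared bases is not given in the sources used here, so that reads in these stretches could be lost or belong to the neighbours.

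Casp8, the initiator caspase, was the member whose log2 fold change was above 0. Its values were 490, 367, 338 and 396 in Con-Veh and 563, 355, 371 and 491 in Con-DHT. Replicates 1 and 4 of Con-DHT were the high ones, whereas replicates 2 and 3 lay within the Con-Veh range. The log2 fold change was 0.15 (SE 0.16, adjusted p 0.64), and its 95% interval, from -0.21 to 0.51, was the widest among the 9 members.

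Cflar, which encodes c-FLIP, had values of 1360, 1604, 1544 and 1340 in Con-Veh. In Con-DHT they were 1299, 1343, 1572 and 1106. Here 2 of the 4 Con-DHT livers were below all Con-Veh livers, while Con-DHT replicate 3 was among the highest of the 8. The log2 fold change was -0.14 (SE 0.11, adjusted p 0.48). A count per gene does not separate the long and short forms of c-FLIP, nor the spliced forms of Bcl2l1 and Mcl1.

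Bid, the BH3-only protein that links caspase-8 to mitochondria, was the most even member in Con-Veh, with a coefficient of variation of 5.43%. Its values were 203, 218, 232 and 224 in Con-Veh and 219, 225, 219 and 184 in Con-DHT. The groups lay over each other except for Con-DHT replicate 4, and the log2 fold change was -0.05 (SE 0.10, 95% interval -0.27 to 0.16, adjusted p 0.80). In GENCODE M21, 628 of the 3550 exonic bases of Bid overlap Bcl2l13 on the opposite strand.

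Bax forms pores in the outer mitochondrial membrane. Its normalized read counts were 531, 559, 471 and 439 in Con-Veh and 353, 357, 395 and 485 in Con-DHT. Replicates 1, 2 and 3 of Con-DHT lay below all Con-Veh livers, and replicate 4 lay within the Con-Veh range. The means of 500 ± 54.8 and 398 ± 61.2 gave a log2 fold change of -0.34 (SE 0.12, 95% interval -0.60 to -0.07, adjusted p 0.12). Without Con-DHT replicate 4 the log2 fold change was -0.44 with an adjusted p of 0.046. Another gene model, Gm45808, shares 192 of the 1576 exonic bases of Bax on the same strand.

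Bcl2l1 and Mcl1, the guards against Bax and Bak among the members, stayed within the spread of the livers. Bcl2l1, which encodes Bcl-xL, had values of 733, 687, 751 and 647 in Con-Veh and 666, 893, 647 and 626 in Con-DHT. Its means were 704 ± 46.9 and 708 ± 124, and the log2 fold change of -0.005 (SE 0.11, adjusted p 0.99) had a 95% interval from -0.26 to 0.25. Mcl1, whose short-lived product hepatocytes need to survive, had values of 2105, 2462, 2685 and 1947 in Con-Veh. In Con-DHT they were 2026, 2354, 2647 and 1787, which is nearly the same range. The log2 fold change of Mcl1 was -0.07 (SE 0.14, 95% interval -0.37 to 0.24, adjusted p 0.82).

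Over the 9 members, limma thus called 1 lower and 0 higher. Of all 14312 genes tested it called 7.21% in either direction and 2.61% as lower, and since the members were listed with this contrast known, nothing is read from the comparison. Among the members 8 of 9 log2 fold changes were below 0 (51.5% of all genes), with a median of -0.14 (-0.01 for all genes). The groups did not overlap, with Con-DHT lower, for 1 member and for 6.62% of all genes. Where the libraries were scaled to the spike-in total, Ripk1, Cflar, Bid, Bcl2l1 and Mcl1 had log2 fold changes above 0. That scaling moved all genes up nearly alike. Relative to their median these 5 stood at -0.18, -0.13, -0.04, 0.005 and -0.06, which is close to the unscaled estimates by construction.

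**Figure D2:**
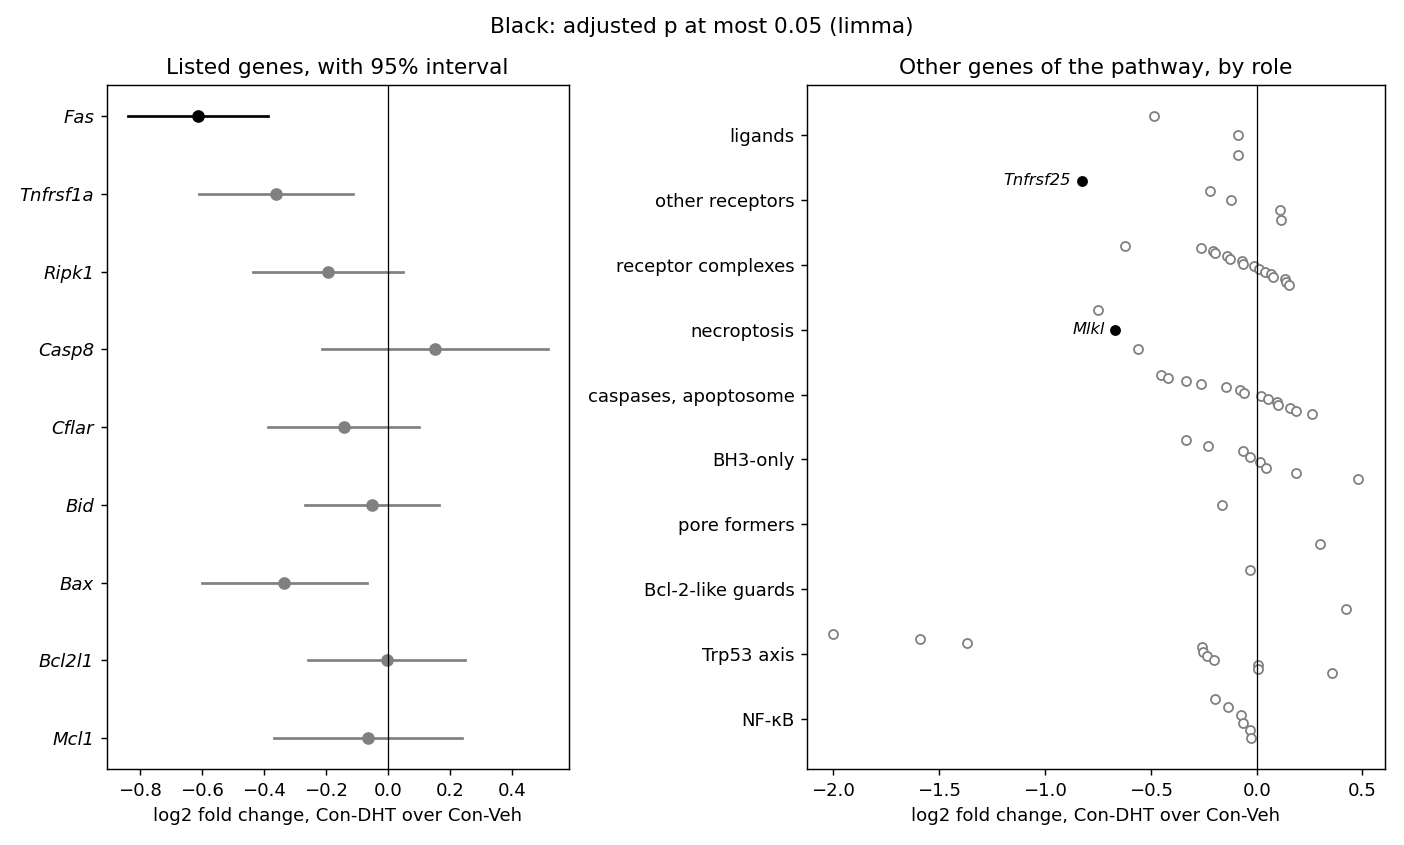
Log2 fold changes of Con-DHT over Con-Veh (x axis) for the 9 members with 95% intervals (left) and for 69 other pathway genes grouped by role (right), with genes called by limma in black. Fas at -0.61 is the called member, and Tnfrsf25 and Mlkl are the called genes among the others.

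To compare levels between genes, the values were divided by exon length (normalized read count per kb of exon in GENCODE M21). In Con-Veh the order was Mcl1 (673 per kb), Tnfrsf1a (531), Bax (317), Bcl2l1 (154), Fas (145), Casp8 (138), Cflar (115), Bid (61.7) and Ripk1 (38.0). The livers of Mcl1 and Tnfrsf1a overlapped, as did those of each neighbouring pair from Bcl2l1 through Fas and Casp8 to Cflar, so that these orders are not resolved. The other neighbours did not overlap. In Con-DHT Fas came seventh at 94.8 per kb, after Casp8 (154) and Cflar (105), and its livers overlapped those of Cflar but not those of Bid (59.6). All exons of a gene model enter its length, which lowers the value of genes with long alternative ends such as Cflar, with 12669 bases.

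Ratios within a library do not depend on how the libraries are scaled. The ratio of Fas to Cflar, the receptor against its decoy caspase, was 0.207, 0.211, 0.187 and 0.216 in Con-Veh and 0.167, 0.143, 0.110 and 0.181 in Con-DHT. The groups did not overlap, and the means were 0.205 ± 0.0126 and 0.15 ± 0.0311. The ratio of Fas to Tnfrsf1a overlapped between the groups, at 0.221 ± 0.0345 and 0.185 ± 0.0286. So did Casp8 to Cflar, at 0.276 ± 0.0658 in Con-Veh and 0.345 ± 0.110 in Con-DHT. For the pore former against its guards, Bax to Bcl2l1 was 0.711 ± 0.0788 and 0.579 ± 0.157, and Bax to Mcl1 was 0.220 ± 0.0321 and 0.187 ± 0.0576. In both of these Con-DHT replicate 4 was the highest of the Con-DHT livers, with Bax to Mcl1 at 0.271 against 0.149 to 0.174. These ratios are given as descriptions, with no test.

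**Figure D3:**
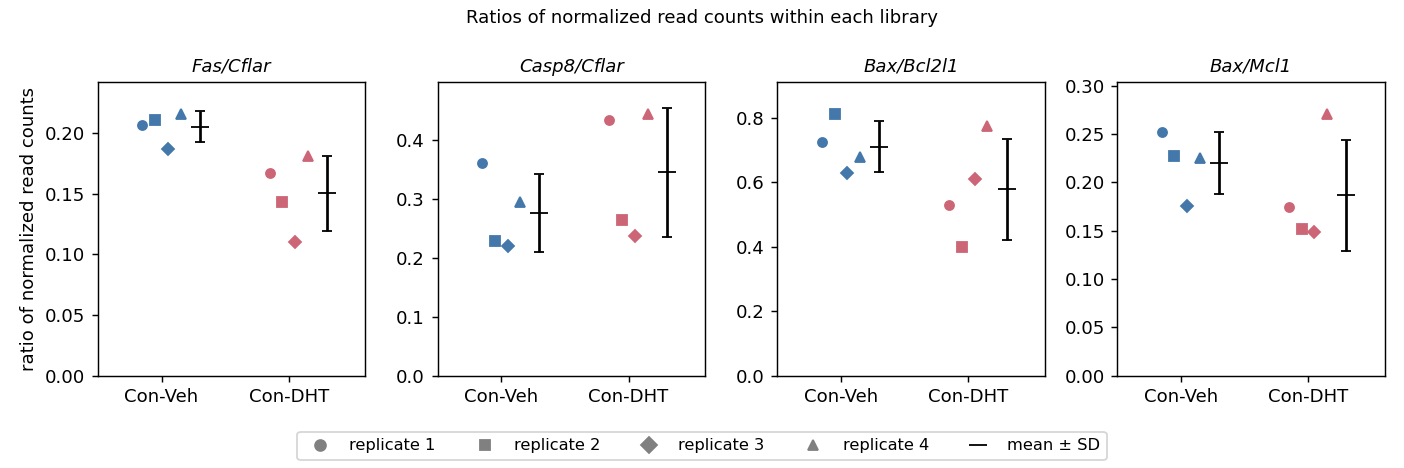
Ratios of normalized read counts (y axis, no unit, from 0) within each of the 8 livers, for Fas/Cflar, Casp8/Cflar, Bax/Bcl2l1 and Bax/Mcl1, with the mean ± SD of 4 mice in black. Fas/Cflar is 0.187 to 0.216 in Con-Veh and 0.110 to 0.181 in Con-DHT, and the other 3 ratios overlap between the groups.

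Of 80 other genes listed for the pathway 69 had values and were tested. Limma called 2 lower and 0 higher, which is 2.90% of the list against 7.21% of all genes. Among them 44 log2 fold changes were below 0, with a median of -0.07. The groups did not overlap for 8 of the 69 with Con-DHT lower and for 2 with Con-DHT higher, against 6.62% and 8.49% of all genes. The other 11 were not analysed here: the ligands Fasl, Tnf and Lta, the receptors Tnfrsf10b, Tnfrsf22 and Tnfrsf23, the BH3-only gene Hrk, and the Bcl-2-like guards Bcl2a1a, Bcl2a1b, Bcl2a1d and Bcl2l10. The deposited table holds no gene with fewer than 81 reads over the 8 libraries.

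Among the ligands, 3 of 6 were tested and none was called. Tnfsf12, which encodes TWEAK, had the highest read count of them before division by exon length, with values of 168, 153, 120 and 139 in Con-Veh and 113, 88.1, 104 and 108 in Con-DHT. The groups did not overlap, and the log2 fold change was -0.48 (SE 0.14) with an adjusted p of 0.061, and of 0.040 without Con-Veh replicate 3 and 0.084 to 0.14 without any other library. The ligand of Fas itself is among the genes not analysed here.

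Among 5 tested receptors beside the members, Tnfrsf25 was called lower. It encodes death receptor 3, a death domain receptor best known on T cells. Its values were 56.1, 36.7, 33.9 and 38.3 in Con-Veh and 22.6, 25.2, 19.4 and 22.8 in Con-DHT, so that the groups did not overlap, with Con-Veh replicate 1 well above the other livers. The log2 fold change was -0.83 (SE 0.21, adjusted p 0.042). Its adjusted p was 0.052 to 0.095 when any 1 library was left out, so that the call was lost in 8 of 8 such fits. Ltbr, the lymphotoxin beta receptor, had the highest read count of this group before division by exon length and a log2 fold change of -0.12 (adjusted p 0.40).

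The 16 genes of the receptor complexes, with the adaptors, the ubiquitin ligases and the kinases that lead to NF-κB, held no called gene. Their log2 fold changes ran from -0.62 to 0.15 with a median of -0.04. Rbck1, which encodes HOIL-1, a subunit of the linear ubiquitin ligase, had the highest read count before division by exon length, and its log2 fold change was 0.08 (SE 0.08, adjusted p 0.62). The 6 NF-κB genes were not called either, and Rela, the one with the highest read count before division by exon length, was at -0.03 (adjusted p 0.87).

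Necroptosis is the lytic death that follows when caspase-8 does not cut RIPK1 and RIPK3. In this group Mlkl, the pore-forming executioner, fell: its values were 96.7, 112, 75.9 and 108 in Con-Veh and 57.9, 58.1, 66.3 and 60.9 in Con-DHT. The groups did not overlap, and the log2 fold change was -0.67 (SE 0.15, adjusted p 0.026). It was called in 2 of 8 fits that left out 1 library, and the adjusted p without Con-Veh replicate 1, 2 or 4 or Con-DHT replicate 1, 2 or 4 was 0.056 to 0.080. With the spike-in scaling, limma called neither Mlkl (log2 fold change -0.47, adjusted p 0.80) nor Tnfrsf25 (-0.63, 0.69). Relative to the median of all genes they stood at -0.66 and -0.82. These values repeat the unscaled estimates, because the scaling shifts all genes nearly alike.

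Zbp1, a sensor of nucleic acids that engages RIPK3, had values of 86.8, 200, 89.8 and 108 in Con-Veh and 80.4, 84.2, 58.2 and 52.2 in Con-DHT. Con-Veh replicate 2 was far above the others, and the log2 fold change was -0.75 (SE 0.27, adjusted p 0.13), or -0.48 without that liver. The kinase gene Ripk3, named after its values were seen, had 29.7, 38.6, 25 and 27 in Con-Veh and 24.5, 23.2, 15.3 and 17.4 in Con-DHT. Its log2 fold change was -0.56 (SE 0.24, adjusted p 0.19). The ranges of all 3 genes were separate with Con-DHT lower, as for 6.62% of all genes, and 1 of the 3 was called lower, as were 2.61% of all genes.

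None of the 14 caspase and apoptosome genes was called. Aifm1, which encodes the mitochondrial flavoprotein AIF, had the highest read count before division by exon length, with means of 1520 ± 33.4 (Con-Veh) and 1577 ± 21.3 (Con-DHT) and a log2 fold change of 0.05 (adjusted p 0.63). Among the 8 tested BH3-only genes, 4 had log2 fold changes below 0 and none was called. The one with the highest read count before division by exon length, Bnip3, which serves mitophagy, stood at 0.04 (SE 0.12, adjusted p 0.87). The pore former Bak1, the partner of Bax, was at -0.17 (SE 0.11, adjusted p 0.39), and the guard Bcl2l2, which encodes Bcl-w, at -0.03 (SE 0.09, adjusted p 0.87). The other tested gene of each group was above 0 and not called by limma. The pore former Bok was at 0.30 (SE 0.20, adjusted p 0.41) and the guard Bcl2 at 0.42 (SE 0.20, adjusted p 0.25). Of the 4 Con-DHT livers, 3 lay above all Con-Veh livers for Bcl2 and 2 for Bok. Both are named after their values were seen.

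The Trp53 axis held 10 genes of which none was called and 7 were below 0. Fas and Bax are known targets of p53 in other settings. Mdm4, an inhibitor of p53, had the highest read count before division by exon length, with equal means of 913 in the 2 groups (adjusted p 0.98). The lowest log2 fold changes were those of Cdkn1a and Gdf15 among the genes with means over 100, and these 2 are named after their values were seen. Eda2r, also named after its values were seen, had low means of 18.8 and 5.84. Its log2 fold change was -1.59 (SE 0.59, adjusted p 0.14 with limma). Cdkn1a, which encodes the cell cycle inhibitor p21, ranged from 121 to 1244 in Con-Veh and from 69.7 to 299 in Con-DHT, and its log2 fold change of -2.0 had an SE of 0.67 (adjusted p 0.10, 0.017 without Con-Veh replicate 3 and 0.065 to 0.22 without any other library). For Gdf15, a stress-induced hormone, Con-Veh livers ranged from 210 to 461 and Con-DHT livers from 67.4 to 294, and the log2 fold change was -1.37 ± 0.40 (SE, adjusted p 0.068, 0.018 without Con-DHT replicate 2 and 0.055 to 0.14 without any other library).

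Markers of liver cell types were examined beside these values. All 5 hepatocyte markers were present at high levels and none was called. Their summed value was 775298 to 1568354 in Con-Veh and 808705 to 982536 in Con-DHT. Most of it was Alb, named after its values were seen, with means of 928458 ± 302000 and 640916 ± 62100. Of the 5 hepatocyte markers, 4 had log2 fold changes below 0 (range -0.475 to 0.053). All 6 Kupffer cell and macrophage markers had log2 fold changes below 0 (-0.61 to -0.40, median -0.49), and 4 of the 6 were called lower. Of all genes, 51.5% were below 0 and limma called 2.61% lower. The summed value of the 6 Kupffer cell markers was 4541 to 5166 in Con-Veh and 3257 to 4168 in Con-DHT, with no overlap. Its largest part was Clec4f, named after its values were seen. Among all genes taken singly, 6.62% were separate with Con-DHT lower. Of 5 endothelial markers, with log2 fold changes from -1.26 to 0, 2 were called lower, and the sum was 3021 to 3359 against 2220 to 2541, again with no overlap. Most of the lower endothelial sum came from Stab2 (means 1611 and 1109), which was called. The other called gene was Lyve1, with the lowest log2 fold change (-1.255). Clec4g and Pecam1 were at -0.353 and -0.185, and Kdr had means of 526 and 530. All 5 are named after their values were seen. Fas, at -0.61, lay at the lower end of the range of the Kupffer cell markers, and their part in the lower level of Fas, Tnfrsf25 and Mlkl was not tested.

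Among T and NK cell markers 2 of 8 had values. Cd4 was called higher (log2 fold change 1.34), while Gzma was at -0.64 (adjusted p 0.36), both named after their values were seen. Their sum was 19.3 to 28.6 in Con-Veh and higher, up to 46.1, in all Con-DHT livers, which rests on Cd4. None of the 5 stellate cell, 4 cholangiocyte and 3 erythroid markers was called. The 1 B cell marker of 4 and the 1 neutrophil marker of 5 with values were not called either. None of the markers with values was at or below 3 reads in all 8 libraries.

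**Figure D4:**
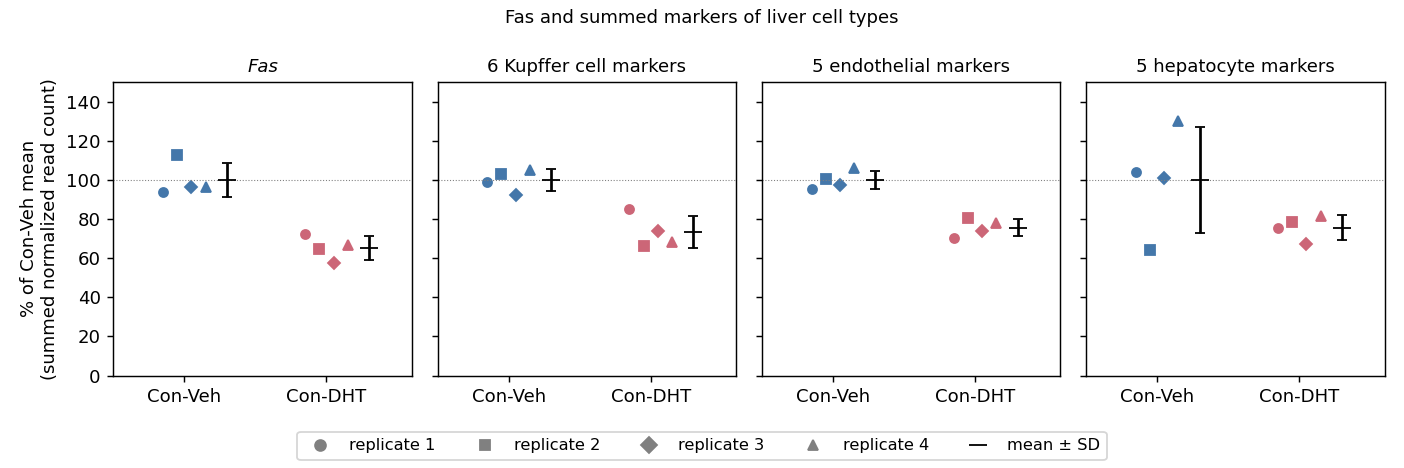
Fas and the summed normalized read counts of 6 Kupffer cell, 5 endothelial and 5 hepatocyte markers in each liver, as percent of the Con-Veh mean (y axis), with the mean ± SD of 4 mice in black. Fas and the Kupffer cell and endothelial sums are lower in all Con-DHT livers than in any Con-Veh liver. The hepatocyte sums of Con-DHT lie within the wide Con-Veh range, and most of each is Alb, whose mean is also lower in Con-DHT.

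The genes whose pattern was most like that of Fas over the 8 libraries were found by the root mean square difference of centred log2 values among 10724 genes with a mean of at least 50. They were Ggh, which encodes gamma-glutamyl hydrolase (0.101), Arhgap30 (0.104), and Vsig4, a complement receptor that is also 1 of the 6 Kupffer cell markers (0.106). Ggh had 236, 262, 228 and 224 in Con-Veh and 173, 136, 157 and 170 in Con-DHT. Vsig4 had 465, 479, 437 and 473 in Con-Veh and 389, 288, 287 and 295 in Con-DHT. In each of the 3 the groups were separate, as for Fas, which the choice by likeness makes probable.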

How the data were processed

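Liver RNA of 8 female mice fed the WD (4 Con-Veh, 4 Con-DHT) was sequenced after ERCC spike-in RNA was added. Per the methods of the study, reads were trimmed with Trimmomatic, aligned with STAR, counted with featureCounts where uniquely mapped in exons, and compared with DESeq2. The submitters' processing notes name GRCm39. The authors deposited a normalized signal, in which gene read counts were divided by the size factor of their library. Dividing by the smallest step gave whole reads for 100.0% of values (tolerance 0.01 reads), and 3 reads equal 2.61 to 3.30. The table holds 14371 features, 54 of them spike-ins.

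Groups came from the labels. Differences were tested with limma 3.58.1 in R 4.3.3 on log2(value + 1) for genes with a mean of at least 10, with an intensity trend, Benjamini-Hochberg adjustment over all genes and a threshold of 0.05. Fold changes are on the log2(value + 1) scale, which understates those of low genes. edgeR 4.0.16 (quasi-likelihood) and DESeq2 1.42.0 were run on the recovered reads. Other alternatives were pseudocounts, filters, scalings, no trend, a replicate block and leaving out each library. Libraries of a group differed by far more than sampling noise (chi-square per degree of freedom 19.1 to 61.2). The labels do not say whether mice shared a cage or a day, so that p-values measure the spread between these samples.

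The members and lists were chosen with earlier results of these data known. Named were the members, called pathway genes, the gene with the highest mean value in each pathway group, genes not analysed here, and the 3 genes most like Fas. Markers were used as counts and ranges, apart from those named after their values were seen. Promoters came from RefSeq (GRCm38.p6), where all 9 members matched, and exon lengths from GENCODE M21. The 95% intervals are for the difference of the group means in limma's fit, and the SDs describe the spread between mice. A detail of the mouse line is not reported here.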

Additional observations from a re-analysis of the deposited data

Results flagged for a closer look

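In 7 of 76 groups of 4 livers examined, 1 liver lay further from the others than Dixon's 95% critical ratio allows, and chance alone flags about 1 in 20 groups. Among the members, Fas in Con-Veh replicate 2 had a normalized read count of 338 (ratio 0.866), Bid in Con-DHT replicate 4 had 184 (0.860), and Bcl2l1 in Con-DHT replicate 2 had 893 (0.850). The high Fas value lay on the side away from the Con-DHT livers, and without that liver the log2 fold change of Fas was still past the threshold. Among the other pathway genes, Ltbr in Con-DHT replicate 4 had 1369 (0.884), Bnip3 in Con-DHT replicate 1 had 2783 (0.915) and Mdm4 in Con-Veh replicate 3 had 1059 (0.876). The ratio of Fas to Tnfrsf1a in Con-Veh replicate 1 was 0.170 (0.853), the liver with the highest Tnfrsf1a value.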

How the results depend on the processing

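The 1 call among the members, Fas, held under 10 of 11 settings other than leaving out a library. Scaling to an equal spike-in total left 0 members called, with a median of all genes of 0.19, and DESeq2 called 2 (Fas and Tnfrsf1a). Leaving out 1 library gave 1 to 2 called members, the second being Bax without Con-DHT replicate 4. Among pathway genes a mean of at least 50 left 1 called (Mlkl), DESeq2 called 5 (Cdkn1a, Eda2r, Mlkl, Tnfrsf25 and Tnfsf12), and leaving out 1 library gave 0 to 3. With the spike-in scaling limma called 2, Cdkn1a and Gdf15. Cdkn1a had a log2 fold change of -1.80 and an adjusted p of 3.9e-07 (-2 and 0.10 without the scaling). Gdf15 had -1.17 and 0.0049 (-1.37 and 0.068 without it). Both fold changes were smaller in size with the scaling, so neither call rests on a larger difference. Over all genes 1032 were called (658 higher, 374 lower), against 648 with a mean of at least 50, 637 with spike-in scaling (562 higher, 75 lower), 1569 with DESeq2 and 633 to 905 without 1 library (648 without Con-Veh replicate 2, 633 without Con-Veh replicate 4, 659 without Con-DHT replicate 1 and 662 without Con-DHT replicate 2).

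Among the members and pathway genes named, estimates changed sign only for genes that were not called. With spike-in scaling the log2 fold changes were 0.004 for Ripk1, 0.055 for Cflar, 0.144 for Bid, 0.193 for Bcl2l1, 0.133 for Mcl1, 0.076 for Ltbr, 0.032 for Bak1, 0.167 for Bcl2l2 and 0.169 for Rela, which follows from the common upward shift: relative to the median of all genes these 9 lay between -0.184 and 0.005. Bcl2l1 was 0.012 with edgeR and 0.008 with DESeq2, and Mdm4 -0.001 with DESeq2. Without 1 library, Bid ranged from -0.089 to 0.013, Bcl2l1 from -0.122 to 0.049, Mcl1 from -0.160 to 0.029, Bnip3 from -0.027 to 0.141, Bcl2l2 from -0.077 to 0.014, Mdm4 from -0.030 to 0.077 and Rela from -0.077 to 0.012. For the other settings the cause was not tested.

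Replicate numbers name different mice. Same-numbered livers did not deviate together (correlations -0.186 to -0.006) and no library correlated best with its own number. With the replicate number as a block, Fas had an adjusted p of 0.025, 700 of all genes were called and 1 pathway gene (Gdf15), while Tnfrsf25 (0.083) and Mlkl (0.071) were not. Read depth limits genes near 81 reads most, which none of the members was.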
